A study of Mus musculus with 8 samples.

Results

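The genes of branched-chain amino acid and propionate breakdown were examined in mouse atria in which the gene of the chromatin remodeller Chd4 had been targeted for deletion after birth. The set comprised 30 genes, taken by symbol from a table of 54532 genes. It held the enzymes of valine, leucine and isoleucine breakdown, of propionate and ketone body use, the cobalamin-linked genes with Clybl, and Abat. Each of the 30 symbols stood on 1 gene identifier, and all 30 were among the 18033 genes that passed a filter on low counts. The data were bulk mRNA sequencing counts from 8 libraries of mixed cells of right and left atria. Chd4flox/flox mice were injected on postnatal day 2 with AAV9:Nppa-Cre (KO, 4 libraries) or with AAV9:Nppa-EGFP (control, 4 libraries). Both groups therefore carried the floxed alleles and an AAV9 vector driven by the promoter of Nppa, a natriuretic peptide gene of atrial muscle, so other atrial cells were not the target of the deletion. The sources used here do not give age at collection, sex or mice per library.

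Valine, leucine and isoleucine are first stripped of their amino group by a transaminase, and the resulting keto acids are then decarboxylated by a single mitochondrial complex, which is the committed step. A kinase switches this complex off and a phosphatase switches it on. Leucine ends as acetyl-CoA and acetoacetate, a ketone body, while valine and isoleucine feed propionyl-CoA, which a biotin enzyme and a cobalamin enzyme turn into succinyl-CoA for the citric acid cycle. In heart muscle both the keto acids and the ketone bodies are fuels, and low expression of the keto acid pathway is a known feature of failing hearts.

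The targeted gene was lower in every KO library, in CPM (counts per 1e+06 reads, with library sizes scaled by TMM factors). Chd4 stood at 169, 185, 187 and 200 CPM in KO, against 278, 297, 284 and 308 CPM in control (log2 fold change -0.66, SE 0.06, edgeR adjusted p = 1.86e-05). No prefix of a library name occurred in both KO and control, and within control the prefixes split controls 1 and 2 (Y-linked genes at 1.56 and 1.76 CPM in sum) from controls 3 and 4 (227 and 212 CPM). In KO their sum was 1.73 CPM for library 2 and ran between 221 and 255 CPM for libraries 1, 3 and 4. Prefix and group cannot be told apart. Total counts were 34002292 to 38228982 per library in KO and 39804625 to 40588007 in control. Markers of cell types were called at edgeR adjusted p under 0.05, where 13.1% of all genes tested were lower and 14.8% higher. Markers of cardiomyocytes summed to 57925 to 72484 CPM in KO, against 88789 to 97477 CPM in control, and 8 of 10 were called lower and 1 higher. Endothelial markers summed to 1508 to 1687 CPM in KO, against 1355 to 1478 CPM in control, with 5 of 8 called higher and 1, Kdr, lower. Fibroblast markers summed to 7252 to 9524 CPM in KO, against 6260 to 6986 CPM in control (5 of 8 higher), and epicardial markers to 715 to 874 CPM in KO, against 524 to 693 CPM in control (6 of 8 higher). Macrophage markers summed to 332 to 444 CPM in KO, against 274 to 335 CPM in control (5 of 8 higher), and smooth muscle markers to 554 to 700 CPM in KO, against 671 to 950 CPM in control (3 of 8 higher, 2 lower). Schwann cell and neuron markers summed to 18.7 to 21.6 CPM in KO, against 29.0 to 38.8 CPM in control, where only Dbh of 6 tested markers was called (mean 1.20 CPM in KO, against 14.1 CPM in control). Adipocyte markers summed to 167 CPM in KO 4, to 10.2 to 23.8 CPM in KO 1 to 3, and to 23.8 to 27.7 CPM in control. In these whole-tissue libraries fewer cells of a type and less RNA per cell cannot be told apart, and the part of cell composition in the changes below was not tested.

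Of the 30 genes, 12 were called lower and 3 higher in KO, and 15 were not called (edgeR quasi-likelihood test, Benjamini-Hochberg adjusted p under 0.05 over all 18033 genes). Of all genes tested, 13.1% were called lower and 14.8% higher. The share of the set called lower was thus 40%, and the share called higher 10%. The genes of the set were chosen with earlier results of these data known, so these shares are a description and no test of the set. The shares over all genes were not matched to the set for expression level. The same 12 and 3 genes had KO and control libraries that did not overlap, against 13.9% of all genes lower and 15.3% higher without overlap. Against controls 1 and 2 alone, 11 genes of the set were called lower and 3 higher (8.77% and 9.81% of all genes), and against controls 3 and 4 alone 12 lower and 3 higher (10.8% and 9.06%). The median log2 fold change was -0.19 over the 30 genes and 0.01 over all genes tested. Scaling by library totals alone, without TMM factors, left all 15 calls in place and added Aldh6a1 as higher, while over all genes it gave 3696 higher and 1580 lower calls in place of 2677 and 2355. Calls were spread unevenly over the pathway: all 3 genes of propionyl-CoA carboxylation and epimerisation were lower, 6 of 7 genes of the isoleucine and valine arms were not called, and the 3 ketone body genes went both ways.

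**Figure D1:**
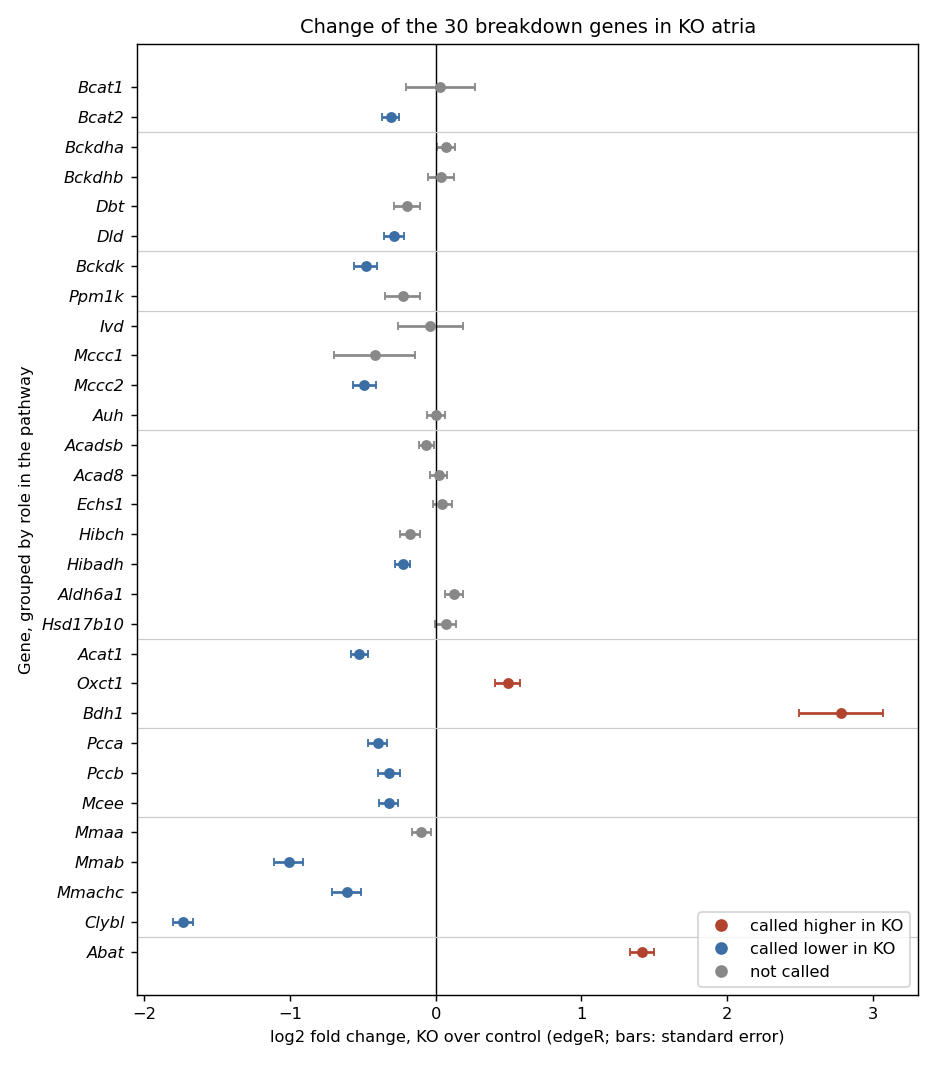
Log2 fold change of each of the 30 genes, KO over control, with its standard error, in the order of the pathway; grey lines separate the roles. Clybl (-1.74) and Mmab (-1.01) are farthest to the left, and Bdh1 (2.78), Abat (1.42) and Oxct1 (0.49) are the 3 genes called higher.

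The summed level of all 30 genes did not separate the groups. It was 3034, 2760, 2774 and 2650 CPM in KO 1 to 4 and 2902, 2790, 3093 and 2814 CPM in control 1 to 4. By role, the summed level of the 4 cobalamin-linked genes was 0.555 of the control mean in KO, that of the propionyl-CoA genes 0.791, that of the keto acid dehydrogenase complex 0.860 and that of the isoleucine and valine arms 0.982. For the complex, KO libraries ranged from 373 to 449 CPM and control libraries from 439 to 491 CPM, so the groups overlapped. Its lower sum lay mostly in Dld, which other complexes share. KO minus control, the means differed by -63.5 CPM for Dld and -4.96 CPM for Dbt. Bckdha and Bckdhb differed by 1.79 and 1.07 CPM. The cobalamin-linked sum was 76.6 CPM in KO, against 138 CPM in control. Clybl had the largest fall in it, with a mean of 15.5 CPM in KO, against 51.6 CPM in control. The 3 ketone body genes together stood at 1.10 of the control mean, as the rise of Oxct1 outweighed the fall of Acat1. Their sum was 830 to 940 CPM in KO and 728 to 839 CPM in control, so the groups overlapped. These sums are descriptions without a test, and they weight each gene by its abundance and length.

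The largest fold change of the 30 genes was that of a ketone body gene. Bdh1 (ENSMUSG00000046598, chromosome 16, 31422280 to 31458901 on GRCm38) encodes the mitochondrial dehydrogenase that interconverts beta-hydroxybutyrate and acetoacetate. It stood at 22.1, 17.9, 19.97 and 14.9 CPM in KO 1 to 4 and at 2.37, 1.39, 4.31 and 2.83 CPM in control 1 to 4. Every KO library lay above every control library. Bdh1 was 6.87-fold higher in KO (log2 fold change 2.78, SE 0.29, edgeR adjusted p = 0.000129), from 549 to 750 reads per KO library and 55 to 169 reads per control library. Across the alternative settings and left-out libraries the log2 value ran between 2.37 and 3.30. Exons of the antisense gene Gm15743 overlap 13.7% of its exon length, and reads from opposite strands may not have been separated, since the strand setting was not given in the sources used here.

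Oxct1 (ENSMUSG00000022186, chromosome 15, 4026383 to 4155344) encodes the succinyl-CoA transferase that activates acetoacetate and sets the rate of ketone body use outside the liver. Its level was 648, 585, 577 and 572 CPM in KO, against 444, 354, 466 and 429 CPM in control. All KO libraries lay above all control libraries, and KO 1 was the highest of the 8. Oxct1 was 1.41-fold higher in KO (log2 fold change 0.49, SE 0.08, edgeR adjusted p = 0.00107). Its exons overlap those of the antisense gene BC037032 over 12.6% of their length.

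Acat1 (ENSMUSG00000032047, chromosome 9, 53580522 to 53610382), whose thiolase splits acetoacetyl-CoA into acetyl-CoA and the last isoleucine intermediate into acetyl-CoA and propionyl-CoA, moved the other way. It stood at 269, 246, 251 and 243 CPM in KO, against 352, 372, 369 and 357 CPM in control, with narrow groups that did not overlap. The decrease was 1.44-fold (log2 fold change -0.52, SE 0.06, edgeR adjusted p = 3.74e-05). Per kilobase of exon, the ratio of Oxct1 to Acat1 ran between 2.34 and 2.45 in KO and between 0.967 and 1.28 in control. The ratio of Bdh1 to Oxct1 per kilobase was 0.0298 ± 0.00377 in KO and 0.00597 ± 0.00216 in control (SD, n = 4 each), so Bdh1 transcripts remained far fewer than those of Oxct1 in both groups.

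Abat (ENSMUSG00000057880, chromosome 16, 8513429 to 8621568) encodes the mitochondrial transaminase that degrades the neurotransmitter GABA and also acts on beta-alanine. It was present at 138, 138, 143 and 135 CPM in KO, against 46.8, 46.1, 61.03 and 53.6 CPM in control. The KO values varied by 2.48% (coefficient of variation) and the control values by 13.4%, and the groups were far apart. The increase was 2.67-fold (log2 fold change 1.42, SE 0.08, edgeR adjusted p = 4.91e-07), the smallest adjusted p of the 3 genes that rose.

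**Figure D2:**
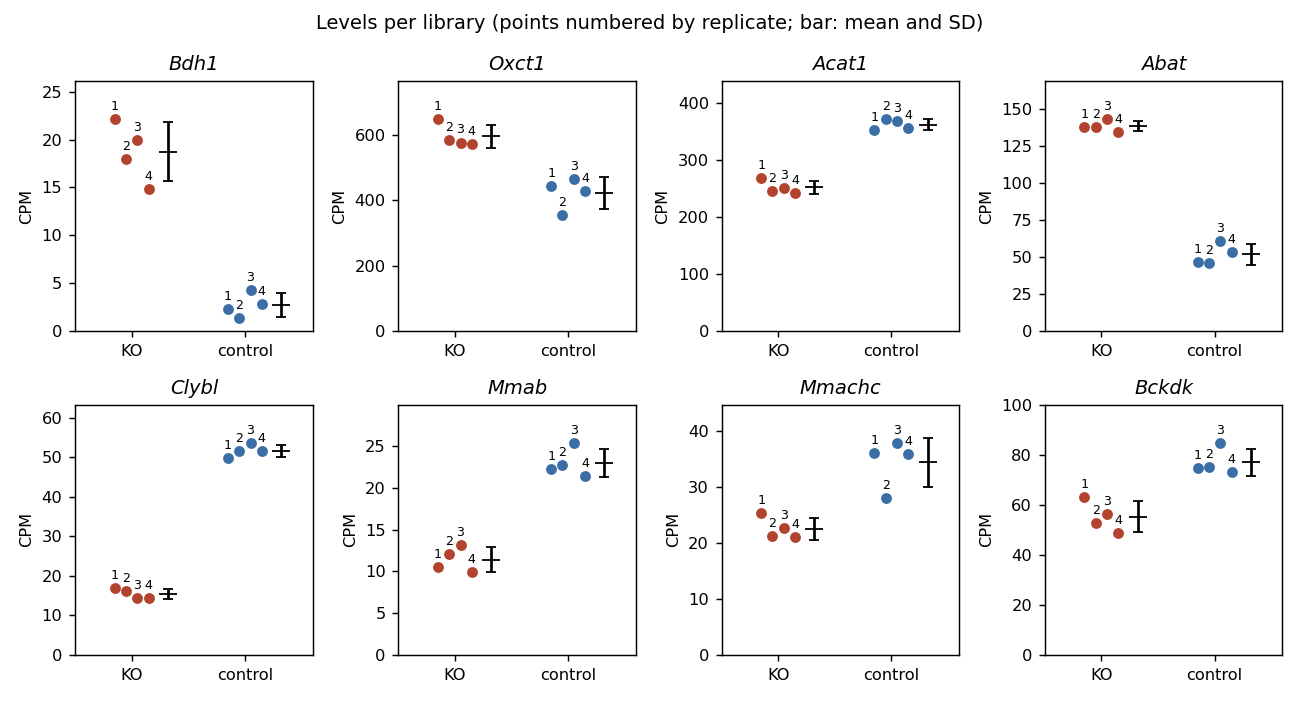
CPM in each library for 8 genes, KO left of control; points are numbered by replicate, and the black bar gives the mean and SD (n = 4 each), with each axis starting at 0. In all 8 panels the KO and control points do not overlap: Bdh1, Oxct1 and Abat are higher in KO, and the other 5 genes are lower.

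Of the 4 cobalamin-linked genes, Clybl, Mmab and Mmachc had the lowest log2 fold changes of the 30 genes, and Mmaa was not called. Clybl (ENSMUSG00000025545, chromosome 14, 122181704 to 122402234) encodes a mitochondrial lyase that cleaves citramalyl-CoA, and its loss in humans is associated with low cobalamin. It stood at 16.8, 16.3, 14.4 and 14.5 CPM in KO, against 49.7, 51.5, 53.6 and 51.6 CPM in control. The groups were far apart, with little spread within each. The decrease was 3.33-fold (log2 fold change -1.74, SE 0.07, edgeR adjusted p = 2.38e-08), and it was the lowest log2 fold change of the 30 genes. Mmab (ENSMUSG00000029575, chromosome 5, 114431034 to 114444060) encodes the adenosyltransferase that makes the cofactor of methylmalonyl-CoA mutase. It had 10.5, 12.1, 13.1 and 9.94 CPM in KO, against 22.3, 22.8, 25.4 and 21.4 CPM in control, a 2.01-fold decrease (log2 fold change -1.01, SE 0.10, edgeR adjusted p = 2.22e-05). Mmachc (ENSMUSG00000028690, chromosome 4, 116702279 to 116708406) encodes the cytosolic protein that strips the upper ligand from incoming cobalamin. Its values were 25.3, 21.2, 22.6 and 21.1 CPM in KO, against 35.9, 27.99, 37.8 and 35.9 CPM in control, with control 2 nearest to the KO libraries. The decrease was 1.53-fold (log2 fold change -0.61, SE 0.10, edgeR adjusted p = 0.000715). Mmaa, which encodes the G protein that protects and loads the mutase, was at 27.1 ± 0.867 CPM in KO, against 29.1 ± 1.71 CPM in control (SD, n = 4 each; log2 fold change -0.10, edgeR adjusted p = 0.276), with overlapping groups.

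The promoters of the 3 cobalamin-linked genes that fell together, and of Bdh1 as the gene with the largest rise, are shown from RefSeq on GRCm38.p6, each from 250 bases before to 50 bases after the most upstream transcript start, read 5′ to 3′ on the gene's strand. Capitals mark the single match, on the opposite strand, to AGGTGT, the core bound by T-box factors such as Tbx5. Clybl lies on the plus strand (chr14:122181444-122181743), Mmab on the minus strand (chr5:114443978-114444277), Mmachc on the minus strand (chr4:116708336-116708635) and Bdh1 on the plus strand (chr16:31422047-31422346).
Clybl: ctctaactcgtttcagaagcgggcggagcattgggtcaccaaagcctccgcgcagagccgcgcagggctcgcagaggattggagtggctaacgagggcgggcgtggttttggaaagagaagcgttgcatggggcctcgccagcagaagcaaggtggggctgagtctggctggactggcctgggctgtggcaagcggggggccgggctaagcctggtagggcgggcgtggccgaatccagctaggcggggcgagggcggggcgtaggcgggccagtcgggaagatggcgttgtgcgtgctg
Mmab: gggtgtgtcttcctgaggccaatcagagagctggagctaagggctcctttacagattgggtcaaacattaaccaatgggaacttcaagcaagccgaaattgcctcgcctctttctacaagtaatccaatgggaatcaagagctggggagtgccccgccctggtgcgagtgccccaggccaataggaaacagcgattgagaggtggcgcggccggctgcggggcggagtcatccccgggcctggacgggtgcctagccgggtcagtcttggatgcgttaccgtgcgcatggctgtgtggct
Mmachc: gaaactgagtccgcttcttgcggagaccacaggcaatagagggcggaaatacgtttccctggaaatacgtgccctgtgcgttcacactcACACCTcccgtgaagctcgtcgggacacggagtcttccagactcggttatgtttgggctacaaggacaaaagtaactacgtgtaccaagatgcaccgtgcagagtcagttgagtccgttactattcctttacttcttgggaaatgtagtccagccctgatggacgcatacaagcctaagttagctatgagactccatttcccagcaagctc
Bdh1: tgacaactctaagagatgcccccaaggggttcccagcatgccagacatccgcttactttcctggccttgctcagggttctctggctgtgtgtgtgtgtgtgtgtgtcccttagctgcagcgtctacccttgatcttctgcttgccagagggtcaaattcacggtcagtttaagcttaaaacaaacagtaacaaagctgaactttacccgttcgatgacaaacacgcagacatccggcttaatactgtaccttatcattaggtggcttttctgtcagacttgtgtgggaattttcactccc
The GC content of the Clybl window was 67.3%, that of Mmab 59.0%, that of Mmachc 50.7% and that of Bdh1 48.3%, against a median of 52.7% over 32851 mouse windows. The match in Mmachc began 161 bases before the start. Of 34 windows found for 27 of the 30 genes, 3 held AGGTGT on either strand (8.82%, in Mmachc, Mccc2 and Pcca), against 13.7% of all windows. AAGGTCA, the half-site of estrogen-related receptors, was in 0 of the 34 windows (4.72% of all), AGATAA, which GATA factors bind, in 2 (Dld and Mccc2; 11.2% of all), and the MEF2 motif in 0 (3.69% of all). The NRF1 motif was in 4 windows (11.8%: Hibadh, Mmaa, Pccb and Dld; 4.60% of all), and CACGTG, an E-box, in 1 (Mccc2; 7.15% of all). All motifs were searched on both strands, none of the matches is shown to be bound, and the windows do not cover enhancers.

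Some of these genes start head to head with another protein-coding gene. Within 1000 bases upstream on the opposite strand, 7 of the 30 genes had such a neighbour, against 9.18% of the 14710 protein-coding genes tested. Mmab starts 209 bases from Mvk, the mevalonate kinase gene, which was at 8.14 ± 0.847 CPM in KO, against 10.5 ± 2.28 CPM in control (log2 fold change -0.37, SE 0.15, edgeR adjusted p = 0.0863). Mmachc starts 103 bases from Ccdc163, which was at 7.09 ± 1.49 CPM in KO, against 6.72 ± 1.78 CPM in control (log2 fold change 0.08, SE 0.19, edgeR adjusted p = 0.803). Mcee starts 339 bases from Mphosph10, with 17.6 ± 1.99 CPM in KO, against 17.5 ± 1.16 CPM in control (log2 fold change 0.01, SE 0.09, edgeR adjusted p = 0.949; SD, n = 4 each for all 3 neighbours). The neighbours of Bckdha, Acadsb, Acad8 and Aldh6a1 were not called either (edgeR adjusted p = 0.177 to 0.725), and the difference between a gene and its neighbour was not tested.

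Transcripts of the enzymes that carry propionyl-CoA to methylmalonyl-CoA fell together by a modest amount. Propionyl-CoA carboxylase consists of an alpha subunit with biotin (Pcca) and a beta subunit (Pccb), and methylmalonyl-CoA epimerase (Mcee) follows it. Pcca (chromosome 14, 122534324 to 122891100) stood at 42.4, 41.3, 37.3 and 36.5 CPM in KO, against 52.8, 50.5, 54.5 and 49.5 CPM in control (log2 fold change -0.40, SE 0.06, edgeR adjusted p = 0.000831). Pccb (chromosome 9, 100982032 to 101034898) had 124, 109, 103 and 102 CPM in KO, against 129, 132, 152 and 134 CPM in control (log2 fold change -0.32, SE 0.08, edgeR adjusted p = 0.00822). KO 1 was the nearest KO library to control for both subunits. Mcee (chromosome 7, 64392607 to 64412125) was at 23.2, 21.04, 24.02 and 21.2 CPM in KO, against 27.9, 27.5, 28.3 and 28.3 CPM in control (log2 fold change -0.32, SE 0.07, edgeR adjusted p = 0.00358). The ratio of Pcca to Pccb per kilobase was 0.182 to 0.201 in KO and 0.191 to 0.218 in control, and these ranges overlapped. Against controls 1 and 2 alone Pccb was not called (edgeR adjusted p = 0.0564).

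At the entry of the pathway, the mitochondrial transaminase gene fell and the cytosolic one was variable. Bcat2 (chromosome 7, 45570153 to 45589711), the mitochondrial form, stood at 34.8, 32.8, 34.5 and 36.8 CPM in KO, against 42.7, 40.97, 44.97 and 43.2 CPM in control, a 1.24-fold decrease (log2 fold change -0.31, SE 0.06, edgeR adjusted p = 0.00222). Exons of the opposite-strand gene 0610005C13Rik cover 15.9% of its exon length. Bcat1, the cytosolic form, ranged from 4.22 to 8.21 CPM in KO and from 4.49 to 8.82 CPM in control (log2 fold change 0.03, SE 0.24, edgeR adjusted p = 0.937). The ratio of Bcat1 to Bcat2 per kilobase was 0.0538 to 0.0934 in KO and 0.0418 to 0.0901 in control.

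Of the branched-chain keto acid dehydrogenase complex, only the shared subunit was called among the 4 subunit genes. The decarboxylase genes Bckdha and Bckdhb were at 36.8 ± 1.82 and 40.3 ± 5.17 CPM in KO, against 34.97 ± 1.30 and 39.2 ± 2.29 CPM in control (SD, n = 4 each; log2 fold changes 0.07 and 0.04, edgeR adjusted p = 0.402 and 0.782). Exons of the opposite-strand gene B3gnt8 cover 61.7% of the exon length of Bckdha, so its count is uncertain if strands were not separated. Dbt, the acyltransferase core, ranged from 28.4 to 37.3 CPM in KO and from 36.3 to 42.1 CPM in control (log2 fold change -0.20, SE 0.09, edgeR adjusted p = 0.129). Dld (chromosome 12, 31331277 to 31351453), the dihydrolipoyl dehydrogenase that also serves the pyruvate and oxoglutarate complexes, had 331, 280, 281 and 274 CPM in KO, against 359, 332, 372 and 358 CPM in control. KO 1 stood close to control 2 while the other KO libraries were lower. The decrease was 1.22-fold (log2 fold change -0.28, SE 0.07, edgeR adjusted p = 0.0107), and it was not called against controls 1 and 2 alone (edgeR adjusted p = 0.0777).

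Of the switch of the complex, the kinase gene was called lower and the phosphatase gene was not called. The difference between them was not tested. Bckdk (chromosome 7, 127904082 to 127910221), the kinase that inactivates the complex, stood at 63.4, 52.8, 56.3 and 48.7 CPM in KO, against 75.00, 75.4, 84.97 and 73.3 CPM in control, a 1.40-fold decrease (log2 fold change -0.48, SE 0.08, edgeR adjusted p = 0.00102). Ppm1k, the phosphatase that reactivates it, was at 73.9, 89.9, 89.8 and 65.8 CPM in KO, against 95.3, 85.2, 110 and 82.8 CPM in control (log2 fold change -0.23, SE 0.12, edgeR adjusted p = 0.19), with KO 1 and KO 4 below and KO 2 and KO 3 within the control range. The ratio of Bckdk to Ppm1k per kilobase was 1.40, 0.957, 1.02 and 1.21 in KO 1 to 4 and 1.28, 1.44, 1.26 and 1.44 in control 1 to 4. KO 1 lay inside the control range of this ratio and the other 3 KO libraries below it.

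In the leucine arm, Ivd and Mccc1 varied widely within both groups. Ivd, the isovaleryl-CoA dehydrogenase gene, was at 242, 152, 198 and 156 CPM in KO 1 to 4 and at 154, 200, 263 and 150 CPM in control 1 to 4 (log2 fold change -0.04, SE 0.22, edgeR adjusted p = 0.924). Libraries near 150 CPM and libraries near or above 200 CPM occurred in both groups. Mccc1, the biotin subunit of methylcrotonyl-CoA carboxylase, was at 53.1, 53.3, 34.4 and 45.5 CPM in KO, against 81.9, 76.2, 35.7 and 55.4 CPM in control (log2 fold change -0.42, SE 0.28, edgeR adjusted p = 0.312). KO 3 and control 3 were the lowest of their groups, and control 1 and control 2 were the highest. Mccc1 was called lower without control 3 (log2 fold change -0.61, edgeR adjusted p = 0.0473) and against controls 1 and 2 alone (-0.78, adjusted p = 0.015), and was at 0.01 against controls 3 and 4 alone (edgeR adjusted p = 0.983). These control pairs also differ in library name prefix and in Y-linked expression, which cannot be told apart.

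The partner subunit behaved more evenly. Mccc2 (chromosome 13, 99948530 to 100015639), the beta subunit of the same carboxylase, had 30.6, 28.2, 28.03 and 25.5 CPM in KO, against 38.9, 40.7, 42.8 and 35.2 CPM in control, a 1.40-fold decrease (log2 fold change -0.49, SE 0.08, edgeR adjusted p = 0.000638). Its groups did not overlap. Auh, the methylglutaconyl-CoA hydratase gene, was at 33.2 ± 2.10 CPM in KO, against 33.2 ± 0.424 CPM in control (SD, n = 4 each; log2 fold change -0.00062, SE 0.06, edgeR adjusted p = 0.995).

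**Figure D3:**
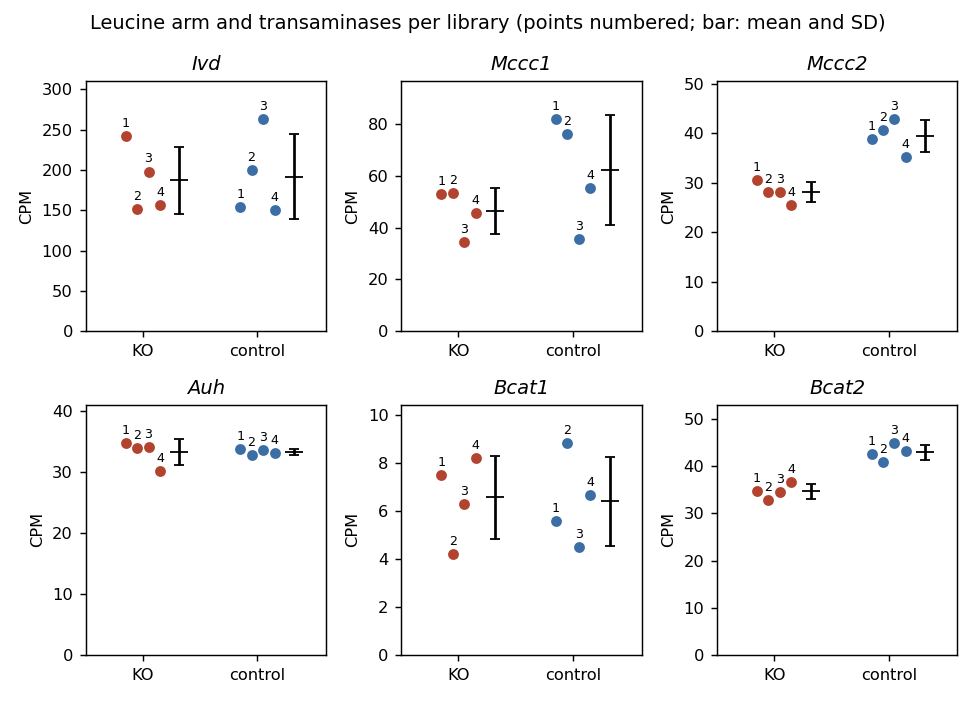
CPM in each library for the 4 leucine arm genes and both transaminase genes, KO left of control; points are numbered by replicate, and the black bar gives the mean and SD (n = 4 each). Ivd, Mccc1 and Bcat1 spread widely within both groups and overlap, while Mccc2 and Bcat2 are lower in every KO library than in every control library.

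Most of the isoleucine and valine arms differed little between the groups. Hibadh (chromosome 6, 52546228 to 52640389), the hydroxyisobutyrate dehydrogenase of the valine arm, stood at 127, 120, 114 and 117 CPM in KO, against 138, 139, 145 and 138 CPM in control (log2 fold change -0.23, SE 0.05, edgeR adjusted p = 0.00855), the smallest decrease among the 12 called genes. Hibch, the hydrolase just before it, was at 42.9, 39.1, 36.6 and 39.6 CPM in KO, against 45.7, 41.1, 48.2 and 44.1 CPM in control (log2 fold change -0.18, SE 0.07, edgeR adjusted p = 0.0714). It was called lower by limma-voom on all 8 libraries (log2 fold change -0.22, adjusted p = 0.0182), and by edgeR without KO 1 (adjusted p = 0.0251) or without control 2 (edgeR adjusted p = 0.0348). Acadsb and Acad8, the acyl-CoA dehydrogenases of isoleucine and valine, were at 129 ± 1.27 and 41.6 ± 2.34 CPM in KO, against 135 ± 5.41 and 40.98 ± 0.879 CPM in control (log2 fold changes -0.07 and 0.02). Echs1, a hydratase shared with fatty acid oxidation, had 167 ± 11.3 CPM in KO, against 162 ± 7.09 CPM in control (log2 fold change 0.05). Hsd17b10, a dehydrogenase of the isoleucine arm, had 49.3 ± 3.50 CPM in KO, against 47.01 ± 3.66 CPM in control (log2 fold change 0.07). Aldh6a1, which turns methylmalonate semialdehyde into propionyl-CoA, had 131 ± 5.29 CPM in KO, against 120 ± 8.26 CPM in control (log2 fold change 0.12; SD, n = 4 for each of these). Adjusted p-values of these 5 genes were 0.163 to 0.830 by edgeR. Exons of the opposite-strand gene Bbof1 cover 18.6% of the exon length of Aldh6a1.

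Levels were set side by side per kilobase of annotated exon, with the exons of all transcripts of a gene merged. This merged length can exceed that of the transcripts present, and it was 8286 bases for Echs1 and 10179 bases for Hibadh. The order and ranks of genes depend on it, while the change of a gene between the groups does not. In KO the order at the top was Oxct1 at 161 ± 9.63, Dld at 79.2 ± 7.18, Acat1 at 67.2 ± 3.11 and Pccb at 39.5 ± 3.68 CPM per kb. In control it was Oxct1 at 114 ± 13.1, Acat1 at 96.5 ± 2.53, Dld at 96.5 ± 4.48 and Pccb at 49.3 ± 3.69 CPM per kb (SD, n = 4 each). The lowest control library for Oxct1 (95.7) lay within the range of Acat1 (93.8 to 99.0 CPM per kb), so the first 3 genes in control were not separated in every library. Clybl was at 10.7 ± 0.858 CPM per kb in KO, where it ranked 17 of 30, against 35.8 ± 1.11 CPM per kb and rank 6 in control. Abat was at 17.9 ± 0.443 CPM per kb and rank 13 in KO, against 6.70 ± 0.898 CPM per kb and rank 24 in control. Bdh1 was at 4.82 ± 0.793 CPM per kb in KO, against 0.700 ± 0.313 CPM per kb in control. Bcat1 was last in both groups, at 0.703 ± 0.187 CPM per kb in KO, against 0.686 ± 0.198 CPM per kb in control, and in control it did not differ from Bdh1 beyond their spread.

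**Figure D4:**
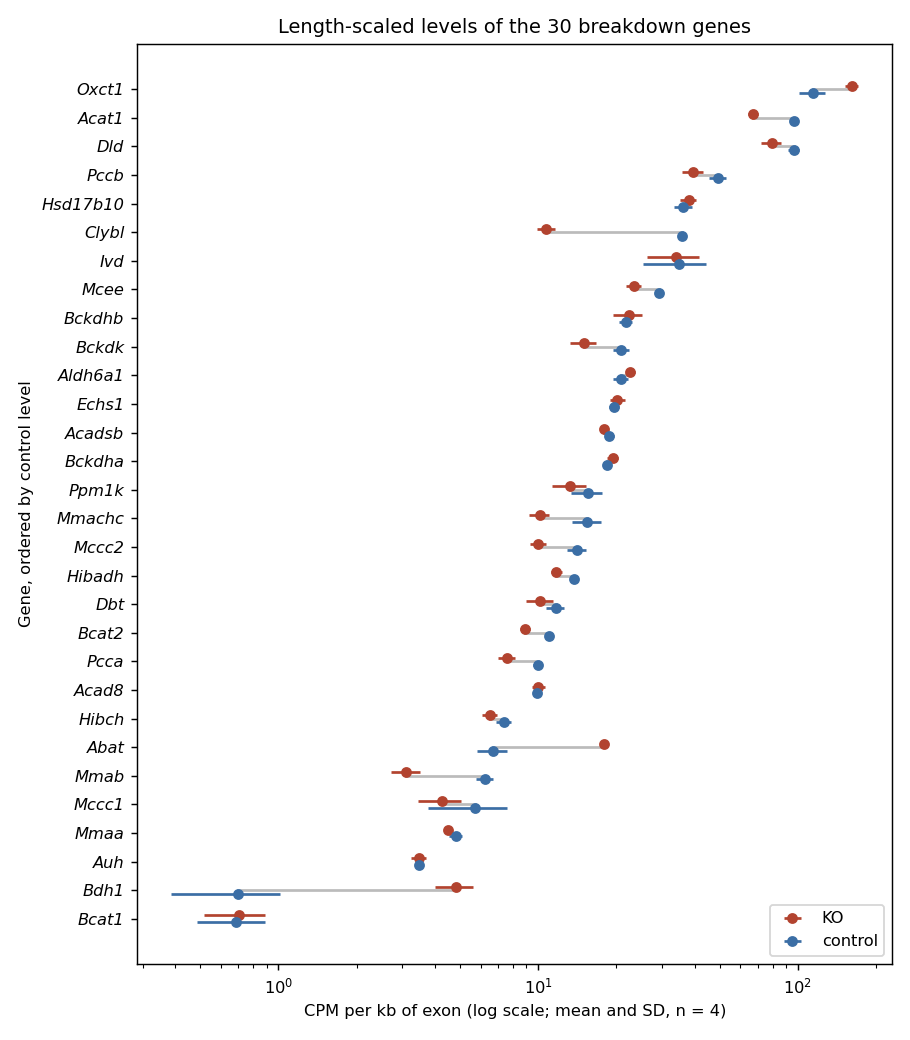
CPM per kilobase of exon on a log axis, mean and SD of 4 libraries, KO above control within each row, with genes ordered by control level. The longest grey bars belong to Bdh1 (4.82 against 0.700), Clybl (10.7 against 35.8) and Abat (17.9 against 6.70 CPM per kb).

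Other genes that serve these steps were read from 9 further lists, also chosen with earlier results of these data known, with 85 tested genes. Of these genes, 23 were called lower (27.1%) and 10 higher (11.8%), against 13.1% and 14.8% of all genes tested. The median log2 fold change of the 85 genes was -0.05. With library totals alone 17 of them were called higher, and 17 lower. Around the cobalamin step, 3 of 9 genes were lower (33.3%) and 1 higher (11.1%). Mtr, the cytosolic methionine synthase that uses the other cobalamin cofactor, was at 116, 92.5, 102 and 108 CPM in KO, against 314, 296, 350 and 317 CPM in control (log2 fold change -1.61, SE 0.08, edgeR adjusted p = 1.10e-07). Its reductase Mtrr was at 12.3, 14.5, 13.7 and 11.97 CPM in KO, against 20.02, 23.6, 23.7 and 21.1 CPM in control (log2 fold change -0.75, SE 0.09, edgeR adjusted p = 9.08e-05). Neither overlapped between the groups. Tcn2, the plasma cobalamin carrier, was at 120 ± 3.49 CPM in KO, against 94.4 ± 7.99 CPM in control (log2 fold change 0.35, edgeR adjusted p = 0.00211). Mut, the methylmalonyl-CoA mutase itself, was at 103 ± 2.45 CPM in KO, against 118 ± 5.74 CPM in control (SD, n = 4 each; log2 fold change -0.18, edgeR adjusted p = 0.0245). It missed the threshold when KO 2, KO 3, KO 4, control 1 or control 3 was left out (adjusted p = 0.0568 to 0.0741), unfiltered (0.0612), against either control pair (0.0664 and 0.0607) and with library totals alone, where the log2 fold change was -0.10 (adjusted p = 0.158).

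Among 6 amino acid transport genes 2 were called higher (33.3%, against 14.8% of all genes tested) and none of the others was called. The large neutral amino acid transporter genes Slc7a5 and Slc43a2 were at 17.3 ± 2.69 and 15.7 ± 1.45 CPM in KO, against 9.03 ± 0.942 and 9.93 ± 0.820 CPM in control (log2 fold changes 0.94 and 0.66, edgeR adjusted p = 0.000181 and 0.000387). Slc25a44, the mitochondrial carrier for these amino acids, was at 36.4 ± 1.19 CPM in KO, against 36.5 ± 1.40 CPM in control (log2 fold change -0.0024, edgeR adjusted p = 0.981). Of 12 further oxidation genes, Hadh rose (log2 fold change 0.27, edgeR adjusted p = 0.00308) and Mlycd, the malonyl-CoA decarboxylase gene, fell (-0.40, adjusted p = 0.00158). Each was 8.33% of that list, against 14.8% of all genes higher and 13.1% lower. Slc5a6, the biotin transporter gene, was the only 1 of 8 cofactor genes called (12.5%), and it was lower (-0.47, edgeR adjusted p = 0.0104). Of 6 further ketone body genes, only Aacs, a cytosolic acetoacetate-activating enzyme gene, was called (16.7%). It was higher (0.41, edgeR adjusted p = 0.0438), which held without control 1 but not with another single library removed (adjusted p = 0.0503 to 0.132). Aacs was also not called by limma-voom (adjusted p = 0.0569), with Y-linked expression as covariate (0.0689) or against either control pair (0.157 and 0.0845). Against controls 1 and 2 alone, Hadh (edgeR adjusted p = 0.0579) and Slc5a6 (0.0849) were not called.

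The complexes that share Dld and the citric acid cycle, into which the pathway drains, held more genes that fell than rose. Of all genes tested, 13.1% were called lower and 14.8% higher, against 46.2% and 23.1% in the pyruvate and oxoglutarate complexes. In the citric acid cycle 46.7% were lower and 6.67% higher. Of 13 genes of the pyruvate and oxoglutarate complexes, 6 were lower and 3 higher, with Ogdh at -0.30, the kinase Pdk2 at -0.59, the phosphatase regulator Pdpr at -0.35 and the kinase Pdk1 at 0.32 on the log2 scale (edgeR adjusted p = 0.00562, 1.30e-05, 0.00122 and 0.00367). Of these 13 genes, 3 were lower and 0 higher against controls 1 and 2 alone, where Ogdh (adjusted p = 0.0598) and Pdk1 (0.0709) lost their calls, and 5 to 7 were lower and 1 to 3 higher with 1 library left out. With the Y-linked covariate or against controls 3 and 4 alone 1 was higher. Of 15 citric acid cycle genes, 7 were lower and 1 higher (2 higher with library totals alone, 0 against controls 3 and 4 alone; median log2 fold change -0.17), with Sdhc, Idh3b and Idh2 at -0.46, -0.44 and -0.40 (edgeR adjusted p = 0.000203 to 0.00126). Of 8 genes of GABA and glutamate metabolism next to Abat, the alanine transaminase gene Gpt rose (log2 fold change 1.19, edgeR adjusted p = 3.21e-05), while its mitochondrial paralog Gpt2 (-1.01, adjusted p = 0.000375) and Got2 (-0.33, adjusted p = 0.00688) fell. That was 12.5% of the list higher and 25.0% lower. Got2 was not called against controls 1 and 2 alone (adjusted p = 0.0648). Of 8 regulators, Ppara (-0.52, edgeR adjusted p = 0.000617), Klf15 and Ppargc1b were lower (37.5%) and 5 were not called. The count of 3 lower was 1 with library totals alone, 6 by DESeq2, 5 with the Y-linked covariate and 1 to 4 with 1 library left out. Klf15, a factor known to drive branched-chain amino acid catabolism in heart, was at 34.5, 48.7, 53.7 and 41.3 CPM in KO, against 69.2, 93.5, 53.8 and 65.3 CPM in control (log2 fold change -0.66, SE 0.19, edgeR adjusted p = 0.0334). KO 3 and control 3 were nearly equal, and the call did not hold when KO 1, KO 2, KO 4, control 1 or control 4 was left out (adjusted p = 0.0547 to 0.0847), with library totals alone (0.0703), unfiltered (0.114) or against controls 3 and 4 alone (log2 fold change -0.44, 0.111). Ppargc1b (-0.41, edgeR adjusted p = 0.0437) likewise missed it with KO 2, KO 3, KO 4, control 1 or control 4 removed (adjusted p = 0.109 to 0.123), with library totals alone (0.0698) and against either control pair (0.121 and 0.0944).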

How the data were processed

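Polyadenylated RNA of mouse atria was sequenced in 8 libraries, 4 KO and 4 control. The deposited table held raw read counts per gene and library, made by the authors; STAR, DESeq2 and mm10 are named per the submitters' processing notes, while neither a counting tool nor a strand setting is named there. Columns were assigned to libraries by vector and number. From these counts, genes were filtered with filterByExpr (minimum count 10, minimum total 15), scaled by TMM and tested with edgeR 4.0.16 (robust quasi-likelihood fit, no covariate, R 4.3.3), with Benjamini-Hochberg adjustment over 18033 genes and a threshold of 0.05. The test was tried on simulated data. CPM used TMM-scaled library sizes, and the SE of a log2 fold change was taken from the F statistic. Gene positions and exon lengths came from GENCODE M21 (GRCm38), which held 54495 of 54532 identifiers. Alternatives were other scalings, DESeq2 1.42.0, limma 3.58.1 (voom with quality weights), other filters, a replicate block, Y-linked expression as covariate, either control pair, a threshold of 0.01 and leaving out each library. The members and lists were chosen with earlier results of these data known. All 30 members and Chd4 were named, with up to 4 genes of smallest p from each other list and Mut, Slc25a44 and Klf15, except that some genes are not reported here; head-to-head neighbours were chosen by position after the data had been seen. The labels do not say how many animals each library holds. In both groups Y-linked expression differed between libraries, so at least some libraries of a group held different animals; p-values measure spread among these libraries. Libraries of a group differed by more than counting noise (chi-square divided by its degrees of freedom, 12.2 to 31.4).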

Additional observations from a re-analysis of the deposited data

Results flagged for a closer look

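In 16 of 168 groups of 4 libraries, 1 library stood apart by Dixon's gap test, which chance gives in about 1 in 20 groups. Of the 60 groups of member genes, 3 were among them. Dld in KO 1 was at 331 CPM, against 274 to 281 CPM in the other KO libraries. Oxct1 in KO 1 was at 648 CPM, against 572 to 585 CPM. Hibadh in control 3 was at 145 CPM, against 138 to 139 CPM in the other control libraries. The summed level of the propionyl-CoA genes in control 3 was 234 CPM, against 210 to 211 CPM.

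KO 1 also stood apart from the other KO libraries for Got2 (536 CPM, against 450 to 459), Idh3b (309 CPM, against 275 to 277), Ppargc1b (17.6 CPM, against 12.1 to 12.3) and, as the lowest, Pdpr (43.6 CPM, against 48.4 to 49.1). The cardiomyocyte marker sum of KO 1 was the highest of the KO libraries at 72484 CPM, and its part in these values was not tested. All 15 member calls were kept without KO 1.

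KO 4 held adipocyte marker RNA, with Adipoq at 15.8, Plin1 at 17.1 and Cidec at 16.5 CPM and a summed marker level of 167 CPM, against 10.2 to 23.8 CPM in the other KO libraries. All 15 member calls were kept without KO 4. Slc5a6 in KO 4 was the lowest of the KO libraries at 6.18 CPM, against 8.05 to 8.31 CPM. The epicardial marker sum of KO 3 was the lowest in KO at 715 CPM. In control 2, Mlycd (44.8 CPM, against 37.1 to 37.5) and Pdk1 (117 CPM, against 103 to 105) were the highest of the control libraries.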

How the results depend on the processing

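All 15 member calls kept their direction and their side of the threshold in 18 of 19 alternatives that refitted the data; controls 1 and 2 alone lost Pccb and Dld. At a threshold of 0.01, Dld was not called. Leaving out 1 library gave 3915 to 5301 called genes in all, 3 members higher and 12 to 13 lower, and 7 to 10 higher and 17 to 27 lower genes of the other lists. In those lists library totals alone gave 17 higher genes (10 with TMM), and controls 1 and 2 alone gave 5 higher and 14 lower (10 and 23 with all controls), while controls 3 and 4 alone gave 8 and 22; the cause was not tested. Deviations of same-numbered libraries from their group means correlated at -0.02, 0.21, -0.08 and 0.09 for numbers 1 to 4. KO 2 and KO 4 but not KO 1 and KO 3 matched best with the control of their own number. The labels do not say whether equal numbers mark a shared litter or batch, and correlations this weak cannot decide it. A replicate block gave 3 members higher, 13 lower (adding Mccc1 at -0.37, edgeR adjusted p = 0.0196) and 4757 genes called. Among the genes recomputed under every setting, signs turned only for genes that were not called, on the log2 scale. Bcat1 was -0.022 by voom, -0.0036 with the Y-linked covariate, -0.16 with controls 1 and 2 alone and -0.10 to 0.23 with 1 library left out. Bckdhb was -0.0060 by voom, -0.0035 with controls 3 and 4 alone and -0.034 to 0.11 with 1 library left out. Ivd was 0.039 with library totals, 0.030 by voom, 0.057 with controls 1 and 2 alone and -0.19 to 0.15 with 1 library left out. Mccc1 was 0.010 with controls 3 and 4 alone. Auh was 0.080 with library totals, 0.0019 unfiltered, 0.0049 with the CPM filter, 0.0032 with the Y-linked covariate and -0.026 to 0.043 with 1 library left out. Acadsb was 0.016 with library totals. Acad8 was -0.011 with controls 1 and 2 alone and -0.016 to 0.039 with 1 library left out. Echs1 was -0.0014 with controls 3 and 4 alone and -0.0052 to 0.073 with 1 library left out. Slc25a44 was 0.078 with library totals, 0.0099 by voom, 0.0034 with the CPM filter, 0.022 with controls 1 and 2 alone and -0.027 to 0.015 with 1 library left out.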
